A study of Mus musculus with 6 samples.

Results

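The 10 genes described here make hemoglobin, build heme or break it down in the mouse heart. They are the adult alpha-globins Hba-a1 and Hba-a2, the adult beta-globins Hbb-bs and Hbb-bt, the heme synthesis enzymes Alas2 and Alas1, the heme oxygenases Hmox1 and Hmox2, and the biliverdin reductases Blvra and Blvrb. They were chosen by name, with Blvrb and the other breakdown genes to be read beside the globin level of each library, and with earlier values of these libraries already known. Of 36757 genes in the files, 11380 entered the comparison, and all 10 genes were among them.

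Hearts were taken at 32 weeks of age from mice lacking both apolipoprotein E and the tissue inhibitor of metalloproteinases TIMP3 (ApoE-/- Timp3-/-, below the double mutants; libraries 4, 5 and 6) and from littermates lacking apolipoprotein E alone (ApoE-/-, below the controls; libraries 1, 2 and 3). Both groups therefore carried the ApoE deletion, which raises blood cholesterol, and no group without it was analysed here. Messenger RNA was sequenced from total heart RNA, and the values are FPKM, fragments counted per transcript length and library size, summed over the transcripts of each gene. The sources used here name no Cre driver, sex, pooling of animals, dissection or removal of blood from the heart.

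Hemoglobin is a tetramer of alpha and beta globin chains, each of which holds a heme group. ALAS2 starts heme synthesis in the red cell lineage and ALAS1 starts it in other tissues, and heme oxygenase then opens spent heme into biliverdin, iron and carbon monoxide. Biliverdin reductase A turns biliverdin into bilirubin, while biliverdin reductase B acts on other biliverdin isomers and on flavins and is abundant in red cells. Adult globin transcripts in a heart come largely from the blood it holds, above all from reticulocytes, the youngest circulating red cells.

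Depth, taken as coverage times length summed over the listed transcripts, lay between 654.1 and 1339 megabases per library. Timp3 itself was at 20.22, 27.99 and 29.58 FPKM in double mutant libraries 4, 5 and 6, against 52.11, 37.99 and 36.26 FPKM in control libraries 1, 2 and 3, lower without overlap but not absent. The labels do not say which part of the gene was deleted, so the transcript that remains was not checked against it. Genes of heart muscle cells were present in every library, with 13 of 13 tested and summed scaled levels of 21892 to 28651 FPKM in the double mutants and 17839 to 23664 FPKM in the controls. Atrial genes differed widely within both groups: Myl7, the atrial myosin light chain, was at 13.39, 173.2 and 229.2 FPKM in double mutant libraries 4, 5 and 6 and at 409.3, 2.085 and 1.212 FPKM in control libraries 1, 2 and 3. The part of this difference in the results below was not tested. All 4 Y-linked genes of the list were at 0 FPKM in the 6 libraries. Library 4 stood apart from the others in globin level, and results that rest on it are given with and without it.

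The globin genes of each pair are near-identical copies, and the stretches below are shown because they hold the only base by which the coding sequences of a pair differ. Each is 60 bases of coding sequence, 5′ to 3′ and counted from the first base of the start codon, read from the transcripts of the later mouse annotation that was used for names; the capital marks the differing base. In Hba-a1 and Hba-a2 the change is C381T, given as the Hba-a1 base, its position and the Hba-a2 base. In Hbb-bs and Hbb-bt it is C417T, in the order Hbb-bs to Hbb-bt.
Hba-a1, bases 322 to 381: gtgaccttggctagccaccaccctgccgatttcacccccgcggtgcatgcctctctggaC
Hba-a2, bases 322 to 381: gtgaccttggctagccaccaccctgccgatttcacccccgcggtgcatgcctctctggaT
Hbb-bs, bases 358 to 417: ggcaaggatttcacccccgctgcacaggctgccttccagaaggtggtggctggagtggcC
Hbb-bt, bases 358 to 417: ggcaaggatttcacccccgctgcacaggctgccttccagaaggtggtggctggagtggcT

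The alpha-globin coding sequences were 99.8% identical over 429 bases and the beta-globin coding sequences 99.8% identical over 444 bases. Stretches of 50 bases were compared between a single transcript of each gene, taken from the later annotation. Of these, 67.5% of those in Hba-a1 occurred unchanged in Hba-a2 and 86.9% of those in Hba-a2 in Hba-a1. The shares were 65.8% for Hbb-bs in Hbb-bt and 58.3% for Hbb-bt in Hbb-bs. How the authors' assignment split reads between the copies is therefore uncertain, and the sum of the 4 genes carries less of that doubt than any one of them.

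Upstream sequence is shown for the 3 genes on which the results turn, a globin, the red cell heme enzyme and Blvrb. Each is the stretch just before the transcription start in the RefSeq table for GRCm38.p6, on the strand of the gene, with any match to a searched motif in capitals. The motifs were AGATAA (the GATA factor motif), CCACACCC (the CACCC box bound by KLF1, a red cell factor), TATAAA (the TATA box) and TGACNNNGC (the antioxidant response element), each searched on both strands and none overlapping another in these stretches. Of 32817 mouse promoter stretches of the same length, 5.65% held AGATAA, 2.18% CCACACCC, 7.58% TATAAA and 6.8% TGACNNNGC.
Hbb-bs, chr7:103827929-103828078, minus strand: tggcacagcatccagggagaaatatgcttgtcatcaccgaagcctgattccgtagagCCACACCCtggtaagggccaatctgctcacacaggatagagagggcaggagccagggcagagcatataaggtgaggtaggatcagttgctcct
Alas2, chrX:150547267-150547416, plus strand: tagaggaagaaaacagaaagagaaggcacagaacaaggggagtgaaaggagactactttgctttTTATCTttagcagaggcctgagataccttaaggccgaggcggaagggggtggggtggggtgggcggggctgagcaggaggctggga
Blvrb, chr7:27447828-27447977, plus strand: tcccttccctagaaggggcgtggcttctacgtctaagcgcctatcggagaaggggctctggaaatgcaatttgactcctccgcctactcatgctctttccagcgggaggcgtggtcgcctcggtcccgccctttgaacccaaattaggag

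The Hbb-bs stretch held CCACACCC, the one form of the CACCC box searched, which the stretches of Hba-a1, Hba-a2 and Hbb-bt did not. Those stretches do hold the letters CACCC in other surroundings, which were not counted. The Alas2 stretch held a GATA motif, written TTATCT as it reads on the plus strand. None of the 4 motifs was in the Blvrb stretch. These matches describe the letters in the stretches shown and say nothing of binding in these hearts.

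The adult globins were the most abundant of the 10 genes, and their level varied widely within both groups. Summed over the 4 genes, the globins were at 23957, 757.9 and 2139 FPKM in double mutant libraries 4, 5 and 6, against 1019, 685.5 and 189.5 FPKM in control libraries 1, 2 and 3. Double mutant library 4 was far above every other library, double mutant library 5 lay between control libraries 1 and 2, and control library 3 was the lowest. The globins took 2.16%, 0.0897% and 0.229% of the summed transcript coverage in double mutant libraries 4, 5 and 6, against 0.104%, 0.0658% and 0.0216% in control libraries 1, 2 and 3. On the log2 scale of the summed level, after scaling the libraries to each other, the double mutants averaged 11.76 ± 2.47 and the controls 8.95 ± 1.12 (SD, n = 3 each). The difference of 2.81 was close to the spread among the double mutants, and without library 4 it was 1.43. In bulk heart tissue, fewer red cells and less globin RNA in each red cell cannot be told apart.

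Alpha-globin and beta-globin transcripts kept a similar proportion in all libraries when assembled transcripts were counted with the reference ones. The ratio of summed alpha to summed beta FPKM was 1.08, 1.23 and 1.25 in double mutant libraries 4, 5 and 6 and 1.22, 0.948 and 1.18 in control libraries 1, 2 and 3. Over the same libraries the summed globins ranged from 189.5 to 23957 FPKM.

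Hba-a2 (ENSMUSG00000069917; NCBIM37, chromosome 11, 32196489 to 32197301, plus strand) was at 9506, 318.7 and 900.0 FPKM in double mutant libraries 4, 5 and 6, against 441.3, 244.2 and 78.05 FPKM in control libraries 1, 2 and 3. Double mutant library 5 was below control library 1, so the groups overlapped. Hba-a1 (ENSMUSG00000069919; chromosome 11, 32183511 to 32184465, plus strand) was at 2916, 98.56 and 288.6 FPKM in double mutant libraries 4, 5 and 6, against 119.4, 89.42 and 24.54 FPKM in control libraries 1, 2 and 3. Library 5 was again below library 1 as deposited, and just above it after the libraries were scaled to each other.

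Hbb-bs (ENSMUSG00000052305; chromosome 7, 110975048 to 110976610, minus strand) was at 7627, 183.0 and 495.4 FPKM in double mutant libraries 4, 5 and 6, against 281.3, 229.3 and 52.58 FPKM in control libraries 1, 2 and 3. Library 5 was here below both control libraries 1 and 2. Hbb-bt (ENSMUSG00000073940; chromosome 7, 110961038 to 110962510, minus strand) was at 3908, 157.6 and 455.0 FPKM in double mutant libraries 4, 5 and 6, against 176.7, 122.6 and 34.34 FPKM in control libraries 1, 2 and 3. It followed the same order of libraries as the alpha-globins. Part of the beta-globin signal sat on transcripts that Cufflinks assembled in single libraries. Under Hbb-bs, an assembled transcript of 311 bases held 5318 FPKM in library 4 and another of 305 bases held 180 FPKM in library 2. Both reach beyond the gene, to positions 111001312 and 110982018. In libraries 5, 6 and 2 a transcript joining Hbb-bt to Hbb-bs, counted under Hbb-bt, held 80.7, 245 and 66.9 FPKM. Libraries 4 and 2 also had the lowest ratios of alpha to beta FPKM, 1.08 and 0.948. These assembled transcripts all count toward the beta sum, so without them the ratio would be higher in libraries 2, 4, 5 and 6. It would not change in libraries 1 and 3, where no assembled transcript held beta-globin signal. The ratio was not computed with reference transcripts alone.

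The fitted differences of the globins between double mutants and controls, on log2(scaled FPKM + 1), were 2.82 for Hba-a1, 2.85 for Hba-a2, 2.62 for Hbb-bs and 2.91 for Hbb-bt, with limma adjusted p between 0.365 and 0.477. The 95% intervals were wide, from 0.148 to 5.50 for Hba-a1 and from -0.375 to 5.62 for Hbb-bs. Without library 4 the 4 differences lay between 1.10 and 1.66. None of the 10 genes passed an adjusted p of 0.05, where 5 of the 11380 tested genes did (0.0439%), 3 of them higher (0.0264%) and 2 lower (0.0176%). At an unadjusted p under 0.05, 5 of the 10 genes were higher in the double mutants, against 6.93% of all tested genes, and 1 was lower, against 5.21%. Those 5 were Hba-a1, Hba-a2, Hbb-bt, Alas2 and Blvrb, and 4 of them follow the one globin level of each library. Since the genes were chosen with these differences known, the counts describe them and test nothing.

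**Figure D1:**
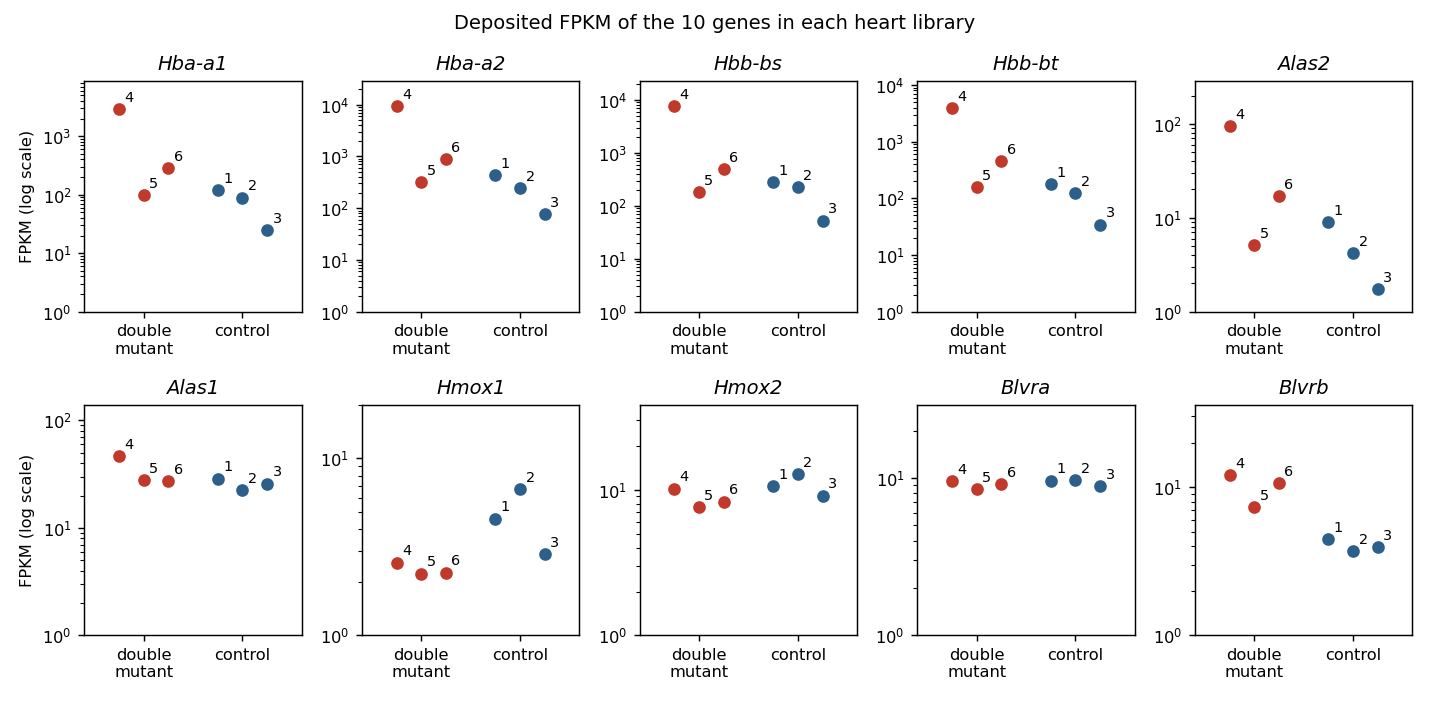
Deposited FPKM of the 10 genes (log axes, a different range in each panel), 1 point per heart library with its library number, double mutants in red on the left and controls in blue on the right. Library 4 is the highest for all 4 globins and Alas2, at 2916 to 9506 FPKM for the globins, while for Blvrb the 3 double mutant libraries, 7.366 to 11.99 FPKM, all lie above the controls.

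Heme synthesis begins with 2 enzymes that catalyse the same step, and their levels followed different orders of the libraries. Alas2 (ENSMUSG00000025270; chromosome X, 146981918 to 147005181, plus strand) was at 95.19, 5.072 and 16.96 FPKM in double mutant libraries 4, 5 and 6, against 9.052, 4.202 and 1.747 FPKM in control libraries 1, 2 and 3. The order of the libraries was that of the globins, with library 4 on top, library 3 at the bottom and library 5 below library 1. The fitted difference between double mutants and controls was 2.14 (95% interval 0.004 to 4.27; limma adjusted p = 0.411), and without library 4 it was 1.10. For every 1000 FPKM of summed globins, Alas2 had 3.97, 6.69 and 7.93 FPKM in double mutant libraries 4, 5 and 6 and 8.88, 6.13 and 9.22 FPKM in control libraries 1, 2 and 3. The proportion was thus lowest in library 4, where globins were highest.

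Alas1 (ENSMUSG00000032786; chromosome 9, 106135786 to 106150457, minus strand), the form used outside the red cell lineage, was at 46.56, 27.59 and 27.24 FPKM in double mutant libraries 4, 5 and 6, against 28.72, 22.29 and 25.74 FPKM in control libraries 1, 2 and 3. Library 4 was the highest here too, and the other 5 libraries lay close together with overlapping groups. The difference was 0.42 (95% interval -0.061 to 0.905; limma adjusted p = 0.477), and 0.21 without library 4. A gene for a ribosomal protein, Rpl29, overlaps Alas1 in the files, so part of its reads may be shared.

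The level of each gene was then fitted on genotype and on the log2 summed globin level of its library together, which asks how a gene moves with blood between libraries of 1 genotype. Alas2 changed by 0.76 ± 0.06 (SE; 95% interval 0.613 to 0.906) on the log2 scale for each doubling of the globins. Its limma adjusted p was 0.0262, or 0.0786 when the 4 globins, which make up the covariate, were left out of the adjustment. Of 11376 genes other than the globins, 2 (0.0176%) passed the first adjustment and 1 (0.00879%) the second. The one that passed both was Hba-ps4, an alpha-globin pseudogene on chromosome 17 (NCBIM37, 26423308 to 26424006, minus strand), at 234.5, 8.327 and 19.94 FPKM in double mutant libraries 4, 5 and 6 and 9.67, 6.484 and 2.197 FPKM in control libraries 1, 2 and 3. Its slope was 0.90, with limma adjusted p of 0.00604 and 0.0302. None of the 398 stretches of 50 bases in its transcript occurred unchanged in an adult alpha-globin transcript, but shorter shared reads were not checked. Without library 4 the Alas2 slope was 0.78, with an adjusted p of 1.0, so its size did not depend on that library and its call did. The Alas2 call was also lost without library 1, 3, 5 or 6 (adjusted p 0.069, 0.089, 0.28 and 0.094, in that order), and the Hba-ps4 call without library 4 (slope 0.71, adjusted p 0.31) or library 5 (0.91, adjusted p 0.16).

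**Figure D2:**
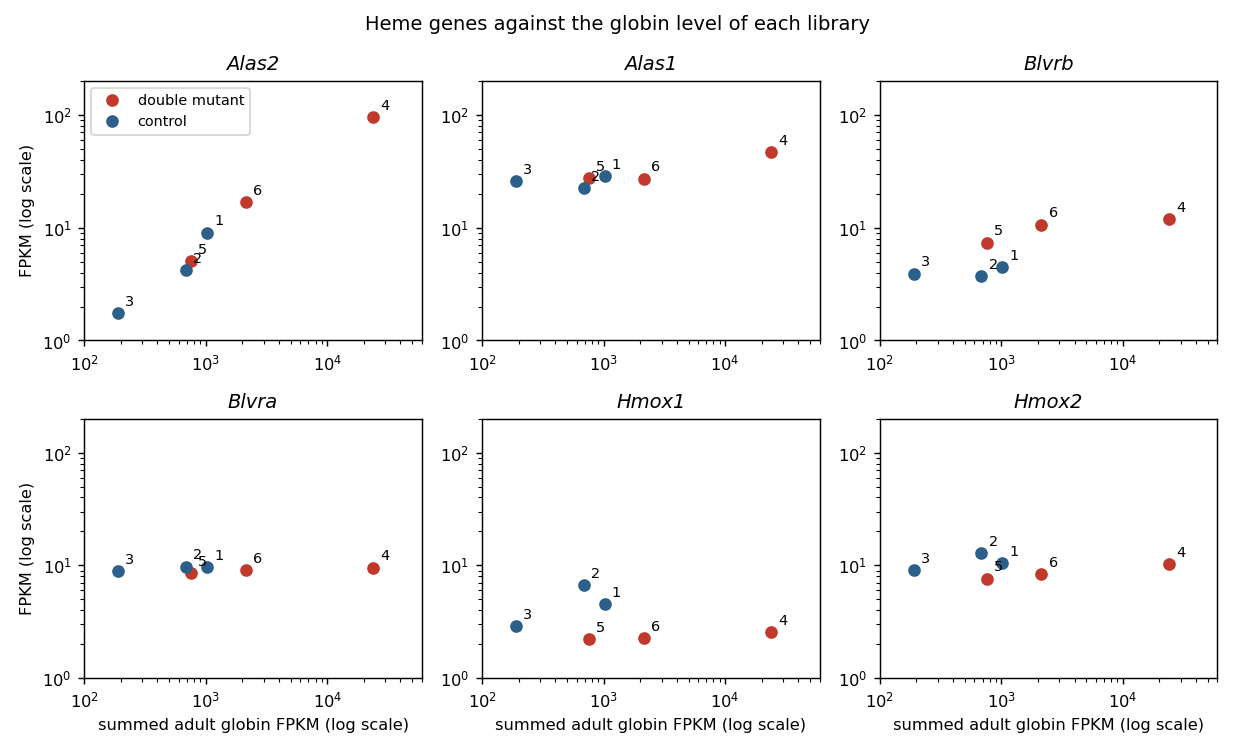
FPKM of 6 heme genes against the summed FPKM of the 4 adult globins (both axes logarithmic, the same range in every panel), 1 point per library with its number, double mutants in red and controls in blue. Alas2 climbs with the globins across all 6 libraries, while the 3 Blvrb points of the double mutants, 7.366 to 11.99 FPKM, lie above those of the controls, 3.715 to 4.447 FPKM, at globin levels that overlap.

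The other enzymes of heme synthesis differed little between the groups. Of the 9 genes of the pathway, all of them tested, none passed the adjusted threshold, and the median difference was -0.04, against -0.01 over all tested genes. At an unadjusted p under 0.05, Alas2 and Ppox were higher, against 6.93% of all tested genes, and Cpox was lower, against 5.21%. Ppox, the next to last enzyme, was at 8.012, 6.925 and 6.752 FPKM in double mutant libraries 4, 5 and 6, against 6.699, 5.565 and 5.958 FPKM in control libraries 1, 2 and 3 (difference 0.28). Cpox, the enzyme just before it, was at 4.971, 4.027 and 5.707 FPKM in double mutant libraries 4, 5 and 6, against 8.01, 6.683 and 7.92 FPKM in control libraries 1, 2 and 3. It was lower in every double mutant library than in any control library (difference -0.48), although the enzyme that follows it was higher. Library 4 was the highest library for 7 of the 9 genes, and for 2742 of all 11380 tested genes. The slope on the globin level had an unadjusted p under 0.05 for 4 of them, all positive, with Alas2, Uros and Urod among them, against 5.5% of all genes with a positive slope at that p.

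Heme breakdown begins with the heme oxygenases, an inducible and a constitutive form. Hmox1 was lower in every double mutant library than in any control library, and the groups overlapped for Hmox2. Hmox1 (ENSMUSG00000005413; chromosome 8, 77617490 to 77624495, plus strand), which heme and oxidative stress induce, was at 2.575, 2.233 and 2.262 FPKM in double mutant libraries 4, 5 and 6, against 4.564, 6.696 and 2.889 FPKM in control libraries 1, 2 and 3. The double mutants lay close together below all controls, at 2.413 ± 0.154 scaled FPKM against 4.563 ± 1.85 in the controls (SD, n = 3 each), so the spread was almost all among the controls. The difference was -0.66 (95% interval -1.18 to -0.129; limma adjusted p = 0.332), and -0.68 without library 4. Without control library 2, the highest, it was -0.40 (limma adjusted p = 0.41), and with reference transcripts alone -0.99 (0.48).

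The Hmox1 level of library 4 rested on how its transcripts were built. Its reference transcript was at 0.389, 2.23 and 2.26 FPKM in double mutant libraries 4, 5 and 6 and at 4.56, 4.98 and 2.89 FPKM in control libraries 1, 2 and 3. An assembled transcript added 2.19 FPKM in library 4, and another added 1.71 FPKM in library 2. With either sum the 3 double mutant libraries remained the lowest. The ratio of scaled Hmox1 was 1.01 between libraries 4 and 5, which differed 27.7-fold in globins, and 1.13 between libraries 4 and 6, which differed 11.1-fold.

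Hmox2 (ENSMUSG00000004070; chromosome 16, 4726361 to 4766742, plus strand), the form made without induction, was at 10.18, 7.622 and 8.3 FPKM in double mutant libraries 4, 5 and 6, against 10.55, 12.77 and 9.097 FPKM in control libraries 1, 2 and 3. The groups overlapped, with a difference of -0.21 (95% interval -0.571 to 0.143; limma adjusted p = 0.633). It was -0.08 without control library 2 and 0.09 with the strongest transcript alone, so no direction is given. Cdip1 and Gm15859 overlap it in the files, so some of its reads may belong to them.

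Of the biliverdin reductases, Blvra lay in a narrow range. Blvra (ENSMUSG00000001999; chromosome 2, 126896401 to 126922820, plus strand) was at 9.56, 8.524 and 9.12 FPKM in double mutant libraries 4, 5 and 6, against 9.617, 9.736 and 8.895 FPKM in control libraries 1, 2 and 3. The difference was 0.02 with a 95% interval of -0.246 to 0.281 (limma adjusted p = 0.969), and its sign turned with the scaling, so no direction is given.

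Blvrb (ENSMUSG00000040466; chromosome 7, 28232997 to 28251163, plus strand) was at 11.99, 7.366 and 10.68 FPKM in double mutant libraries 4, 5 and 6, against 4.447, 3.715 and 3.919 FPKM in control libraries 1, 2 and 3. The groups were far apart: the lowest double mutant library was well above the highest control, and the controls were close together. Scaled FPKM averaged 10.16 ± 1.79 in the double mutants and 3.916 ± 0.296 in the controls (SD, n = 3 each). The difference was 1.17 ± 0.147 on the log2 scale (SE; 95% interval 0.825 to 1.52), with a limma adjusted p of 0.103 over all tested genes, and it was 1.07 without library 4. With limma's weights per library the difference was 1.04 with an adjusted p of 0.038, and under that setting 101 genes were called. Blvrb was singled out for this difference, so its p describes the gene.

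Of the 10 genes, 4 had groups that did not overlap after scaling, against 19.2% of all tested genes. Hba-a1, Hbb-bt and Blvrb had every double mutant library above every control, against 9.98% of all tested genes. Hmox1 alone had every double mutant library below every control, against 9.21%. Hba-a1 and Hbb-bt each overlapped as deposited, since library 5 lay below library 1.

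Of 5 reference transcripts of Blvrb in the files, 3 were above 0 FPKM in some library, and the excess was not held by one of them alone. The main transcript, of 1028 bases, was at 8.52, 5.02 and 6.41 FPKM in double mutant libraries 4, 5 and 6 and at 4.45, 3.72 and 2.5 FPKM in control libraries 1, 2 and 3. The groups did not overlap for this transcript, but the authors' Cufflinks intervals for single libraries did, with 3.99 to 6.06 FPKM in library 5 and 3.45 to 5.45 FPKM in library 1. A shorter transcript of 782 bases was at 3.46, 2.34 and 1.5 FPKM in double mutant libraries 4, 5 and 6, and was listed at 0, 0 and 0.685 FPKM in control libraries 1, 2 and 3. The shortest of the 3, of 509 bases, was listed above 0 in library 6 (2.77 FPKM) and library 3 (0.731 FPKM). Taking the main transcript alone, the Blvrb difference was 0.79, with a limma adjusted p of 0.38. An exact 0 in such files can be a failed estimate, so no fold is given for the short transcripts. No other gene overlaps Blvrb in the files.

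**Figure D3:**
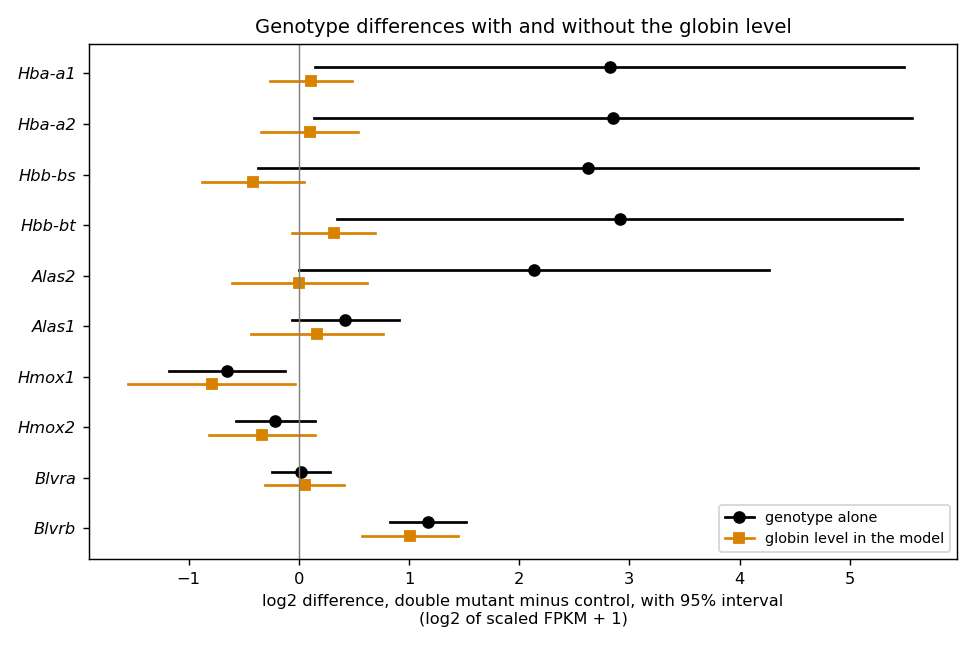
Log2 difference, double mutants minus controls, of log2(scaled FPKM + 1) for each of the 10 genes, with its 95% interval, from the fit on genotype alone (black) and from the fit that also holds the globin level (orange). With the globin level in the model Alas2 lies at 0.00 and the globins between -0.42 and 0.31 (they make up that level), Blvrb at 1.01 against 1.17 without it, and Hmox1 at -0.79 against -0.66.

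Setting Blvrb beside the globin content of each library left most of its difference in place. With the log2 summed globin level in the model, the Blvrb difference between double mutants and controls was 1.01 ± 0.179 (SE; 95% interval 0.57 to 1.44), against 1.17 without it. Its limma adjusted p was 0.299 in a fit with 3 residual degrees of freedom, in which none of the 11380 genes passed 0.05 and 11.2% had an unadjusted p under 0.05. Blvrb moved by 0.06 ± 0.042 for each doubling of the globins (SE; 95% interval -0.045 to 0.163; limma adjusted p = 0.633), a slope whose interval lies below the whole interval of the Alas2 slope. With Alas2 or the red cell markers as the covariate in place of the globins, the Blvrb difference was 0.99 and 0.97. Leaving out library 4 gave 1.06 with the globins in the model.

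Single pairs of libraries can be compared without a model. Double mutant library 5 held 0.968 times the scaled globins of control library 1 and 2.15 times its Blvrb, while its Alas2 was 0.729 and its Hmox1 0.636 times that of library 1. Double mutant library 6 differed from control library 1 in all of them, with 2.42 times its globins, 2.16 times its Alas2, 2.77 times its Blvrb and 0.572 times its Hmox1. Within the double mutants, library 4 held 27.7 times the globins of library 5 and 16.5 times its Alas2, but 1.43 times its Blvrb. Against library 6, library 4 held 11.1 times the globins and 1.11 times the Blvrb. Within the controls, library 1 held 4.25 times the globins and 4.09 times the Alas2 of library 3, and 0.896 times its Blvrb. The within-group differences of Blvrb were small beside those of the globins, and the order of its double mutant libraries, 4 above 6 above 5, was that of the globins.

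The other breakdown genes and both synthesis enzymes were read from the same fit. With the globin level in the model, the Hmox1 difference between double mutants and controls was -0.79 (95% interval -1.55 to -0.034; limma adjusted p = 0.437). It was -0.32 with reference transcripts alone, -0.52 with the red cell markers as the covariate and -0.48 without control library 2. The differences of Hmox2, Blvra and Alas1 in this fit were -0.34, 0.05 and 0.16, in that order. The Alas2 difference was 0.00 ± 0.252 (SE; 95% interval -0.612 to 0.62; limma adjusted p = 0.996). Of the 10 genes, Blvrb was higher and Hmox1 lower at an unadjusted p under 0.05 in this fit, against 5.69% and 5.5% of all tested genes. The slopes on the globin level were 0.09 for Alas1, 0.05 for Hmox1, 0.04 for Hmox2 and -0.01 for Blvra, each with an interval that spans 0.

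Red cell genes outside the 10 followed the globins in library 4. Of 30 red cell markers, 17 were tested and none passed the adjusted threshold. Their median difference, double mutants minus controls, was 0.36 (14 above 0, 3 below), against -0.01 over all tested genes (5557 above 0, 5823 below). With the globin level in the model their median was -0.04. At an unadjusted p under 0.05, 3 were higher in the double mutants, against 6.93% of all tested genes, and none was lower, against 5.21%. Epb41 and Bnip3l were among the 3. The slope on the globin level had an unadjusted p under 0.05 for 9 of the 17, of which 8 were positive, against 9.99% of all genes in either direction. Library 4 was the highest library for 10 of the 17, and for 2742 of all 11380 tested genes.

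Library 4 stood far above the rest for some markers of the list and not for others, and no split of the list was set beforehand. Ube2l6, a ubiquitin-conjugating enzyme, was at 94.82, 7.652 and 15.36 FPKM in double mutant libraries 4, 5 and 6 and at 10.95, 11.3 and 6.065 FPKM in control libraries 1, 2 and 3. Bpgm, which makes the 2,3-bisphosphoglycerate that lowers the oxygen affinity of hemoglobin, was at 34.65, 5.173 and 7.126 FPKM in double mutant libraries 4, 5 and 6 and at 6.413, 6.304 and 3.449 FPKM in control libraries 1, 2 and 3. For both genes library 4 was far above the rest. Bpgm was outside the rule for named genes and was chosen after its values were seen.

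Tmcc2 was flat by comparison, at 12.78, 9.96 and 11.25 FPKM in double mutant libraries 4, 5 and 6 and 12.53, 14.33 and 13.66 FPKM in control libraries 1, 2 and 3. Xpo7 went the other way, with library 4 the lowest, at 1.689 FPKM against 1.884 to 5.564 FPKM in the others. The Xpo7 slope on the globin level was -0.23, and the gene was chosen after its values were seen. Ank1, the ankyrin of the red cell membrane that muscle also expresses, was at 74.94 to 95.72 FPKM in the double mutants and was listed at 0 FPKM in control library 2, beside 121.4 and 99.41 FPKM in control libraries 1 and 3. Among the markers too low to be tested, the red cell anion exchanger Slc4a1 was at 1.81, 0.138 and 0.392 FPKM in double mutant libraries 4, 5 and 6 and at 0.0969, 0.0678 and 0.0115 FPKM in control libraries 1, 2 and 3. The factors of early red cell development were near 0 in every library, with Klf1 at 0.0879 FPKM at most and Gata1 at 0.134 FPKM at most.

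**Figure D4:**
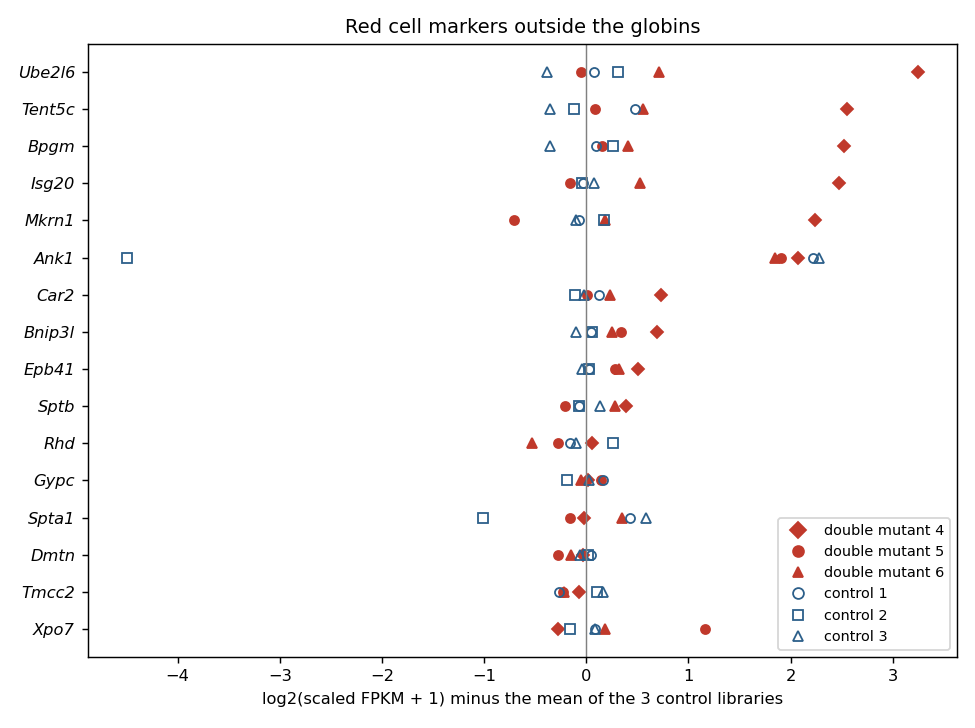
Log2(scaled FPKM + 1) minus the mean of the 3 controls for the tested red cell markers reported here, 1 symbol per library, double mutants filled red and controls open blue. Library 4 (diamonds) stands far to the right for Ube2l6, Tent5c, Bpgm, Isg20 and Mkrn1, while the double mutant library 5 (filled circles) lies among the controls for most of them, and Ank1 in control library 2 (open square) is listed at 0 FPKM.

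Of the globins that are not adult red cell chains, myoglobin (Mb) and cytoglobin (Cygb) were tested and neither had an unadjusted p under 0.05; their differences were both below 0, with a median of -0.23. The embryonic beta-globin Hbb-bh1 was at 3.46, 0.153 and 0.652 FPKM in double mutant libraries 4, 5 and 6 and at 0.808, 0.176 and 0.07 FPKM in control libraries 1, 2 and 3, so it too was highest in library 4. The embryonic globins Hbb-y and Hba-x were not. Hbb-y was at 0.0, 0.235 and 0.471 FPKM in double mutant libraries 4, 5 and 6, and Hba-x was above 0.0 FPKM only in control library 1, at 0.104 FPKM. All these embryonic globins were too low to be tested.

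Few genes that carry heme or iron differed between the groups. Of 18 heme and iron transport genes, 15 were tested, none had an unadjusted p under 0.05 between the groups, and the median difference was -0.05. Of 18 iron handling genes, 16 were tested, with a median difference of 0.03. At an unadjusted p under 0.05, Ncoa4 and Nfs1 were higher, against 6.93% of all tested genes, and Slc11a2 was lower, against 5.21%. Ncoa4, the receptor that sends ferritin to breakdown, was at 7.341, 6.438 and 6.951 FPKM in double mutant libraries 4, 5 and 6 and 6.468, 3.996 and 3.949 FPKM in control libraries 1, 2 and 3. Fth1, the ferritin heavy chain that stores the iron freed from heme, was lower without overlap, at 487.9, 410.4 and 476.4 FPKM in double mutant libraries 4, 5 and 6 against 601.0, 584.3 and 497.7 FPKM in control libraries 1, 2 and 3. The Fth1 difference was -0.22 (limma adjusted p = 0.551), and 9.21% of all tested genes were lower without overlap. The ferritin light chain Ftl1 overlapped between the groups, with a difference of 0.09. Fth1 and Ftl1 were outside the rule for named genes and were chosen after their values were seen.

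Hmox1 is controlled by NRF2 and by its repressor BACH1, and of 15 genes of that system 12 were tested. None passed the adjusted threshold, and the median difference was -0.02. Nfe2l2, which encodes NRF2, was the 1 gene of the 12 with an unadjusted p under 0.05, against 12.1% of all tested genes. Nfe2l2 was at 24.01, 38.41 and 33.96 FPKM in double mutant libraries 4, 5 and 6 and 24.54, 20.75 and 20.72 FPKM in control libraries 1, 2 and 3 (difference 0.58). Library 4 was close to the controls as deposited. With the globin level in the model the Nfe2l2 difference was 0.996 (limma adjusted p = 0.299), about that of Blvrb in the same fit (1.006). The Nfe2l2 slope on the globin level was -0.149. Txnrd1, a target of NRF2, had a difference of -0.25. Keap1, which holds NRF2 in check, had one of 0.12, and of -0.01 when libraries were scaled to a fixed total.

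Macrophages take up spent red cells and express Hmox1, and their genes did not separate the groups. Of 14 macrophage markers, 10 were tested, none had an unadjusted p under 0.05, and the median difference was -0.03. Their summed scaled level was 49.73, 53.01 and 52.39 FPKM in double mutant libraries 4, 5 and 6 and 79.64, 43.48 and 42.18 FPKM in control libraries 1, 2 and 3. Control library 1, the highest, was the second highest for Hmox1, and control library 2, the highest for Hmox1, was low for the macrophage genes. Whether the share of macrophages bears on the Hmox1 difference was not tested.

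Neutrophil and platelet genes, of which 5 of 15 were tested, summed to 24.66, 6.591 and 10.72 scaled FPKM in double mutant libraries 4, 5 and 6 and to 18.13, 17.09 and 5.404 scaled FPKM in control libraries 1, 2 and 3. All 5 had a positive slope on the globin level, against 5910 of 11376 genes other than the globins. For 4 of them the slope had an unadjusted p under 0.05, against 5.5% of those genes with a positive slope at that p. None of the 5 differed between the groups at that p. Of 11 lymphocyte markers 2 were tested, and neither had an unadjusted p under 0.05. Of 12 endothelial markers, all tested, 3 were lower and none higher at that p, against 5.21% and 6.93% of all tested genes. Their median difference was -0.21. Their part in the differences of Blvrb and Hmox1 was not tested.

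The genes whose levels were most like the summed globins over the 6 libraries were Hba-ps4 (Pearson r = 0.996), Actg-ps1 (0.993), Thumpd1 (0.988), Rpl7a-ps11 (0.984) and Ccl5 (0.984). For the heme genes r was 0.992 for Alas2, 0.778 for Alas1, 0.761 for Blvrb, -0.383 for Hmox1, -0.103 for Hmox2 and -0.116 for Blvra. The r of Blvrb and Alas1 rest on 6 points of which library 4 is far from the rest, and all of them share the scaling of their library. The genes most like Blvrb were the predicted genes Gm4707 (0.996) and Gm5560 (0.993) and 3 genes with no symbol (0.985 each). Gm4707 was at 150.1, 124.4 and 147.7 FPKM in double mutant libraries 4, 5 and 6 and 135.6, 116.6 and 111.6 FPKM in control libraries 1, 2 and 3, overlapping between the groups as deposited.

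Genes near Blvrb on chromosome 7 mostly lay near a difference of 0. Of 31 tested genes that start within 1 Mb of it, 2 were higher and 0 lower at an unadjusted p under 0.05. Over all tested genes these shares were 6.93% and 5.21%. The median difference of the 31 genes was 0.07 and the range -1.12 to 0.61, so none of them differed upward by as much as Blvrb. The 3 with the smallest p were Zfp36 (difference 0.61), Rps16 (0.43) and Med29 (0.36). Zfp36, a protein that speeds the decay of messenger RNAs, was at 12.7, 12.35 and 11.92 FPKM in double mutant libraries 4, 5 and 6 and at 7.119, 8.802 and 8.54 FPKM in control libraries 1, 2 and 3, with no overlap and a limma adjusted p of 0.259.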

How the data were processed

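Messenger RNA was measured in 6 mouse hearts, 3 per genotype label. Each library came as 1 file of Cufflinks transcripts deposited by the authors, in which FPKM, normalized for transcript length and library size, and other coverage values stand as text attributes. Per the submitters' processing notes, the tools were TopHat, Bowtie and Cufflinks on NCBIM37; the sources used here give no version, setting, read length or use of strand. Read numbers of genes are unknown, so neither a count test nor a counting interval is given, and reads shared by overlapping genes cannot be told apart.

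Reference transcripts (94670, of which 919 matched no gene) and assembled transcripts of at least 300 bases (39152 of 70603) were summed per gene, giving 36757 genes, of which 193 were left out because a transcript was absent from a file. A later annotation (GENCODE, GRCm38) served for identifiers, symbols and globin coding sequences; gene coordinates are from the files. Between 74.74% and 81.16% of the summed transcript coverage (coverage times length) went to a gene.

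Genes with a mean FPKM of at least 1 and a longest transcript of at least 300 bases were tested. Median-of-ratios factors of 0.8974 to 1.168 scaled the libraries, and limma 3.58.1 (R 4.3.3) fitted log2(scaled FPKM + 1) with a trend on intensity, two-sided, with Benjamini-Hochberg adjustment at 0.05 over all tested genes. For genes near the pseudocount this scale shrinks the difference. A second fit added the log2 summed globin level. The script was tested on simulated data. Single libraries are given as deposited and means ± SD after scaling. The labels call the controls littermates and say no more of how the mice are related, so the p-values cover only the spread of these libraries, which may be technical.

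The members and lists were chosen with earlier results of these data known. Named genes are the 10 members, Timp3, up to 3 genes of lowest p per list and the 4 most abundant red cell markers. The rule also takes the 5 most like the globins and like Blvrb, and the 3 of lowest p near Blvrb. Outside the rule stand Bpgm, Xpo7, Fth1, Ftl1, Uros, Slc4a1, Klf1, Gata1, Hbb-bh1, Hbb-y and Hba-x. So do genes that overlap a member and red cell markers named only with their figure. Some genes that the rule takes are left out. Alternatives were scaling, pseudocount, filter, transcripts summed, library weights, another covariate and leaving out each library.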

Additional observations from a re-analysis of the deposited data

How the results depend on the processing

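No paired analysis was possible because the labels number the libraries 1 to 6 with no number shared between the groups. The summed globin difference was 1.43 without library 4 and 3.83 without library 5, its lowest and highest values; leaving out each library in turn gave Blvrb differences of 1.07 to 1.31 (adjusted p 0.082 to 0.36), and 0.93 to 1.28 with the globin level in the model (0.15 to 0.98). No member was called with any library left out. Over the other settings Blvrb ranged from 0.79 to 1.34, and limma's library weights, which set library 4 lowest at 0.3491, called 1 member, Blvrb (1.04, adjusted p 0.038). The 5 genes called between the groups became 3 with a pseudocount of 0.1, 9 without the filter, 1 at a mean FPKM of at least 5, 101 with library weights, and 3 to 11 with a library left out (3 without library 1, 10 without 2, 11 without 4). With the globin level in the model the count of 0 became 2 without further scaling, 1 with a pseudocount of 0.1, 1 with reference transcripts alone, 1 with Alas2 as the covariate, and 0 to 2 with a library left out (1 without library 1, 2 or 3, 2 without 6). The 2 genes called on the globin slope became 1 with reference transcripts alone, 0 with the red cell markers or Alas2 as the covariate, 1 with the globins left out of the adjustment (a setting chosen after seeing the data), and 0 to 3 with a library left out (0 without library 4 or 5, 1 without 1 or 6, 3 without 2). The Alas2 call on that slope was lost without library 1 (adjusted p 0.069), 3 (0.089), 4 (1.0), 5 (0.28) or 6 (0.094), its slope staying at 0.69 to 0.78.

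Scaling to a fixed total moved the median of all genes to -0.12. Blvra became -0.05 without further scaling, -0.0031 with quantile normalization, -0.12 with the fixed total, -0.02 with the stricter filter or library weights, -0.09 with reference transcripts, -0.26 with its strongest transcript and -0.05 without library 1 (-0.05 to 0.05 over the libraries left out). With the globin level in the model it became -0.14 without further scaling, -0.13 with reference transcripts and -0.05 without library 1 (-0.05 to 0.11), and Alas1 became -0.01 without further scaling. Hmox2 became 0.09 and Urod 0.07 with the strongest transcript, and Urod 0.02 without library 2 or 6 (-0.21 to 0.02). Keap1 became -0.01 with the fixed total, -0.19 with reference transcripts and -0.59 with its strongest transcript; the macrophage gene Mrc1 was -0.06 without library 2 (-0.06 to 0.45) and the platelet gene Pf4 -0.24 without library 3 (-0.24 to 0.48). The cause of these changes was not tested. The summed globins have no value of their own under another pseudocount or library weights. Depth per gene is unknown, and the globin model rests on 3 libraries a group, 1 of them far outlying in globin level.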
